A study of Mus musculus with 6 samples.

Results

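The 10 mitochondrial chaperones and proteases Hspd1, Hspe1, Hspa9, Trap1, Lonp1, Clpp, Clpx, Yme1l1, Afg3l2 and Htra2 were taken by their gene symbols from the 20788 mouse genes that had a value in at least 1 library. RNA had been sequenced from B16 cells, a melanoma line from the C57BL/6 mouse strain, as 3 libraries of Tyr-L cells, labelled with low tyrosinase activity, and 3 libraries of Tyr-H cells, labelled with high activity. Both were subclones of the one line, sorted by their use of tyrosine for melanin, and both grew in low-glucose DMEM with serum, with no treatment named. The sources used here do not say how many subclones stand behind each group, nor whether the 3 libraries came from separate cultures, so the p-values measure the spread between these libraries, which may be technical.

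Most mitochondrial proteins are made in the cytosol, enter the organelle unfolded and are folded in the matrix by an HSP70 (Hspa9), a chaperonin of the HSP60 and HSP10 type (Hspd1 with its lid Hspe1) and an HSP90 (Trap1). Damaged or surplus proteins are removed by ATP-driven proteases in the matrix (Lonp1, and Clpp with its unfoldase Clpx) and in the inner membrane (Yme1l1 and Afg3l2), and by Htra2 between the membranes. Several of these genes are textbook targets of the mitochondrial unfolded protein response, in which trouble inside the organelle is answered by transcription in the nucleus. In mammals this response overlaps with the integrated stress response, whose central transcription factor is ATF4.

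The members did not move as 1 block. Lonp1, Hspa9, Trap1 and Clpp were higher in Tyr-H cells, Yme1l1, Hspd1 and Hspe1 were lower, and Clpx, Afg3l2 and Htra2 did not pass the test. Lonp1 had the largest change, 2.43-fold, and Hspa9 the next, 1.80-fold. With limma on log2(FPKM + 0.1) and a Benjamini-Hochberg adjusted p of at most 0.05 over all 14336 genes tested, 4 members passed as higher and 3 as lower, where 17.9% of all tested genes passed as higher and 39.9% as lower (57.8% in all). After median ratio scaling 7 members passed as higher and 1, Yme1l1, as lower, where 27.9% and 27.0% of all genes tested did. Lonp1 alone was also at least 2-fold higher, which 2.96% of all tested genes were. No member was at least 2-fold lower, which 5.78% of all tested genes were (8.75% in either direction). FPKM, the deposited unit, is the number of fragments scaled by transcript length and library depth, so levels of different genes can be set beside each other.

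Hspd1 (chr1:55077835-55088243, minus strand) and Hspe1 (chr1:55088132-55091307, plus strand) sit head to head in GRCm38, and their annotated ends overlap. Lonp1 (chr17:56614297-56626887, minus strand) and Clpp (chr17:56990305-56996188, plus strand) share a chromosome. Trap1 is at chr16:4039971-4077827 on the minus strand, Clpx at chr9:65294260-65330658 on the plus strand, Yme1l1 at chr2:23156369-23199260 on the plus strand and Htra2 at chr6:83051266-83055273 on the minus strand.

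Promoter sequence is shown for the shared start region of Hspd1 and Hspe1 and for the start regions of Lonp1 and Trap1. Hspd1 and Hspe1 both passed as lower with the deposited values, and neither passed after median ratio scaling. Lonp1 and Trap1 both rose and were picked because they share a motif that Clpp, also higher, does not have. The letters are RefSeq's for GRCm38.p6, in a table that held 7 of the 10 members (not Hspa9, Afg3l2 or Htra2). The motifs were chosen after the sequences and the values had been seen, and each match is a description. The Hspd1 and Hspe1 stretch is chr1:55088052-55088079 on the plus strand. It lies upstream of the Hspe1 start at 55088148 and of the inner Hspd1 start at 55087932, which are 216 bases apart, and GENCODE places it in an exon of 1 longer Hspd1 transcript and in an intron of another. Capitals mark alternating TTC and GAA units, each 2 bases from the next (the heat shock element), and the overlapping GABP/ETS letters CCGGAAG:
Hspd1 and Hspe1: cggtccgTTCTAGAACCTTCCGGAAGgc

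The 3-unit heat shock element was in 0.603% of 32851 promoter windows of 300 bases, searched on both strands, and CCGGAAG in 8.86%. In Hspe1 the heat shock units run from 89 to 72 bases upstream of the start. For Lonp1 (chr17:56626903-56627153, minus strand) and Trap1 (chr16:4077828-4078060, minus strand), capitals mark the cAMP response element letters TGACGTNA, the kind of site that factors of the ATF and CREB families bind. Both stretches are upstream of the GENCODE gene, printed 5′ to 3′:
Lonp1: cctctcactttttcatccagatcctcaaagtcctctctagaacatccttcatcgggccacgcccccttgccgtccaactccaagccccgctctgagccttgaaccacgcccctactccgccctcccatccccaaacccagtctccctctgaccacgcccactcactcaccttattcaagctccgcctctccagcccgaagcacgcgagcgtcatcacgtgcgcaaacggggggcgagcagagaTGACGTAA
Trap1: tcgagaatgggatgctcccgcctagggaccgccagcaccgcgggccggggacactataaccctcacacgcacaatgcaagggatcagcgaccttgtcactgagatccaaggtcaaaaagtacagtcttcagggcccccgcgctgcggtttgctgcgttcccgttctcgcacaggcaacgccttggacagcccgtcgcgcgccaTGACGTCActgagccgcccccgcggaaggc

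TGACGTNA was in 2.93% of the same windows. It ends at the RefSeq start base of Lonp1, which is upstream of the GENCODE gene, and lies 47 to 40 bases before the RefSeq start of Trap1. Of the 7 matched members only these 2 had it, and none had TGATGNAA, the core of the composite site for ATF4 with a C/EBP partner, which 3.97% of all windows held. Yme1l1 held CCGGAAG at 3 places and a CCAAT box, letters that 37.4% of all windows held, and Clpp held CCGGAAG once, past its start. Clpx held a CCAAT box and the NRF1 letters GCGCANGCG, the latter found in 6.25% of windows. The outer Hspd1 start at 55088243 had a CCAAT box and GCGCANGCG too, and neither heat shock element nor CCGGAAG in its window.

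The 6 libraries listed 16813 to 17413 genes each, and 14425 genes were listed in all of them. The tyrosinase gene Tyr, which checks the labels, ranged from 9.52 to 10.7 FPKM over the Tyr-L and from 19.7 to 23.8 over the Tyr-H libraries. All 6 melanocyte markers were listed, with summed levels of 7333 to 7649 FPKM for Tyr-L against 5417 to 5934 for Tyr-H. Among them Mitf, the master regulator of the lineage, fell from 90.5 ± 6.64 to 25.0 ± 1.56 FPKM (SD, n = 3; log2 -1.85, adjusted p = 1e-07, limma). The paper reports that MITF did not differ between the subclones, in a figure of proteins, which is a measure unlike RNA. The 7 leukocyte markers summed to 3.44 to 4.18 and 4.44 to 4.83 FPKM, with Ptprc not listed in any library. The 3 fibroblast markers summed to 0.928 to 1.03 and 0.929 to 1.08 FPKM, with Col1a1 higher (log2 0.71, adjusted p = 0.017, limma) and Col1a2 lower (log2 -0.91, adjusted p = 0.0087) in Tyr-H, and endothelial and keratinocyte markers were at or below 0.0540 FPKM. What part these markers have in the members' values was not tested. The median log2 fold change over all tested genes was -0.15, and it was -0.01 after median ratio scaling. Calls of small size depend on that choice: with median ratio scaling 50.8% of the genes that passed were higher in Tyr-H, and with the deposited values 31.0% were.

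**Figure D1:**
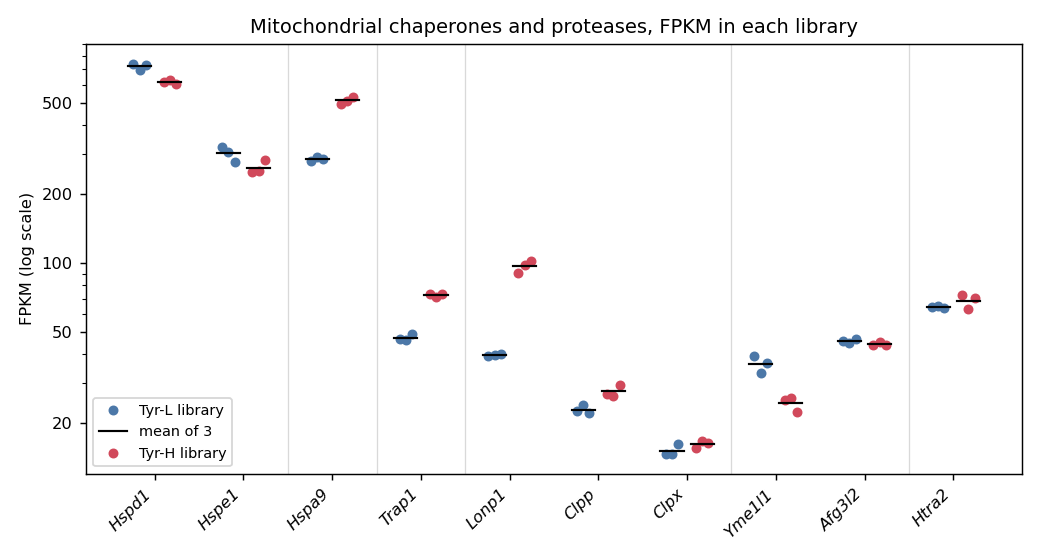
FPKM of the 10 members (log axis) in each of the 3 Tyr-L libraries (blue) and 3 Tyr-H libraries (red), with black bars for the group means. The groups stand apart upwards for Hspa9, Trap1, Lonp1 and Clpp and downwards for Hspd1 and Yme1l1, and overlap for Hspe1, Clpx, Afg3l2 and Htra2.

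Of the 10 members, 4 had all Tyr-H libraries above all Tyr-L libraries and 2 had them all below, where 20.2% and 43.8% of all tested genes did (64.0% together). After median ratio scaling 7 had them all above and 2 all below. Of the 14306 genes tested under that scaling, 4466 had them all above and 4404 all below. Levels spanned from Hspd1, which ranked 81 of the 14336 tested genes by mean FPKM, to Clpx, which ranked 4643. In bulk RNA, fewer cells that express a gene and less RNA per cell cannot be told apart.

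Hspd1, the HSP60 chaperonin that encloses unfolded proteins, had values of 743, 696 and 730 FPKM in Tyr-L and of 619, 629 and 606 FPKM in Tyr-H cells. Every Tyr-H library was below every Tyr-L library. The mean fell from 723 ± 24.4 to 618 ± 11.7 FPKM (SD, n = 3), a log2 fold change of -0.23 (SE 0.04, 95% interval -0.31 to -0.14) with adjusted p = 0.00062 from limma. After median ratio scaling Hspd1 no longer passed (log2 -0.07, adjusted p = 0.12, limma). Of 5 annotated pseudogenes that carry the Hspd1 name, 2 were listed, at no more than 6.15 FPKM. Pseudogenes under other names were not searched.

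Hspe1, the HSP10 lid of the same chaperonin, was at 322, 306 and 276 FPKM in Tyr-L and at 249, 252 and 281 FPKM in Tyr-H cells. The groups overlapped, since the highest Tyr-H library lay above the lowest Tyr-L library. The mean was 302 ± 23.3 FPKM in Tyr-L against 261 ± 17.5 in Tyr-H (SD, n = 3), with a log2 fold change of -0.21 (SE 0.06, 95% interval -0.35 to -0.07). It passed limma with adjusted p = 0.018, and the exact permutation test of 3 against 3 libraries gave p = 0.2. The call was lost without Tyr-L replicate 1 (adjusted p = 0.068, limma) or 2 (0.056), without Tyr-H replicate 1 (0.057) or 2 (0.067), and after median ratio scaling (log2 -0.06, adjusted p = 0.47).

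The deposited tables gave Hspd1 and Hspe1 the same locus, and whether reads were assigned by strand is not given in the sources used here, so reads from their overlap may be split between them. Within each library, Hspe1 was at 0.434, 0.440 and 0.378 of the level of Hspd1 in Tyr-L and at 0.403, 0.400 and 0.464 in Tyr-H. The chaperonin pair kept overlapping ratios, with means of 0.417 ± 0.0340 and 0.422 ± 0.0358 (SD, n = 3). The exact permutation test gave p = 1, and Benjamini-Hochberg adjusted p = 1 over 8 ratios tested. The smallest p that 3 against 3 libraries allow is 0.1.

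Hspa9, the mitochondrial HSP70 (mortalin) that pulls proteins through the import channel and helps them fold, was at 278, 289 and 285 FPKM in Tyr-L. It was at 496, 512 and 531 FPKM in Tyr-H cells. The gap between the groups was far wider than the spread within either. The mean rose from 284 ± 5.48 to 513 ± 17.8 FPKM (SD, n = 3), a log2 fold change of 0.85 (SE 0.04, 95% interval 0.77 to 0.93) with adjusted p = 3e-07 from limma. Under the alternatives tried, its log2 fold change ranged from 0.76 to 1.00, and with median ratio scaling it too was at least 2-fold higher, as were 3.80% of all genes tested under that scaling. Small RNA genes annotated on the same strand, Gm22200 and Gm26109, lie within Hspa9.

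With the deposited values the HSP70 rose and the HSP60 fell in the same libraries. After median ratio scaling the HSP70 still rose, and the HSP60 did not pass (log2 -0.07, adjusted p = 0.12, limma). Hspa9 stood at 0.375 to 0.416 of the level of Hspd1 in Tyr-L libraries and at 0.801 to 0.877 in Tyr-H libraries, a ratio described after its values were seen and without a test. Grpel1, the nucleotide exchange factor that releases substrates from Hspa9, rose by 0.28 on the log2 scale (adjusted p = 0.00057, limma). The ratio of Grpel1 to Hspa9 was 0.0675, 0.0633 and 0.0625 in Tyr-L and 0.0449, 0.0420 and 0.0432 in Tyr-H, with no overlap. Its log2 difference was -0.57 (exact permutation p = 0.1, the smallest possible, and 0.133 adjusted over 8 ratios).

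Trap1, the mitochondrial HSP90, was at 46.5, 46.3 and 48.9 FPKM in Tyr-L and at 73.3, 71.5 and 73.3 FPKM in Tyr-H cells. All Tyr-H libraries were higher, and both groups were tight. The mean rose from 47.2 ± 1.49 to 72.7 ± 1.06 FPKM (SD, n = 3), a log2 fold change of 0.62 (SE 0.04, 95% interval 0.54 to 0.70) with adjusted p = 1.4e-06 from limma. Dnase1 overlaps Trap1 on the opposite strand and Gm23413 on the same one. The cytosolic HSP90 gene Hsp90ab1 averaged 957 ± 17.8 FPKM in Tyr-L against 892 ± 25.7 in Tyr-H cells (SD, n = 3), a log2 fold change of -0.10 (adjusted p = 0.037, limma) that was 0.051 after median ratio scaling. Its call was lost in 9 of 16 alternatives, including without any 1 library other than Tyr-H replicate 1. The ratio of Trap1 to Hsp90ab1 went from 0.0494 ± 0.00247 to 0.0816 ± 0.00184 (SD, n = 3) without overlap (exact permutation p = 0.1, adjusted 0.133).

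Lonp1, the ATP-driven matrix protease that degrades misfolded and oxidised proteins, was at 39.4, 39.9 and 40.2 FPKM in Tyr-L and at 90.3, 98.0 and 102 FPKM in Tyr-H cells. The lowest Tyr-H library was more than 2-fold above the highest Tyr-L library. The mean rose from 39.8 ± 0.372 to 96.7 ± 5.80 FPKM (SD, n = 3), a log2 fold change of 1.28 (SE 0.05, 95% interval 1.17 to 1.38) with adjusted p = 1.5e-07 from limma. Under the alternatives tried it stayed between 1.18 and 1.43. No annotated gene overlaps Lonp1.

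Clpp, the barrel-shaped peptidase of the other matrix protease, was at 22.6, 24.0 and 22.2 FPKM in Tyr-L and at 26.8, 26.4 and 29.5 FPKM in Tyr-H cells. The Tyr-H libraries were all higher, by a much smaller step than for Lonp1. The mean rose from 22.9 ± 0.953 to 27.6 ± 1.66 FPKM (SD, n = 3), a log2 fold change of 0.27 (SE 0.05, adjusted p = 0.0022, limma) that ranged from 0.17 after rescaling to equal totals to 0.42 after median ratio scaling. The ratio of Lonp1 to Clpp, described after its values were seen and without a test, was 1.66 to 1.81 in Tyr-L and 3.37 to 3.71 in Tyr-H libraries.

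Clpx, the ring-shaped unfoldase that feeds proteins into Clpp, was at 14.7, 14.7 and 16.2 FPKM in Tyr-L and at 15.7, 16.8 and 16.5 FPKM in Tyr-H cells. The groups overlapped. The log2 fold change was 0.10 (95% interval -0.02 to 0.23, adjusted p = 0.14, limma), which leaves room for no difference or for one close to that of Clpp. It passed, at 0.26 and 0.25, after median ratio scaling (adjusted p = 0.0032, limma) and quantile normalization (0.0039). The ratio of Clpx to Clpp was 0.664 ± 0.0609 in Tyr-L and 0.593 ± 0.0394 in Tyr-H (SD, n = 3), with overlapping groups (exact permutation p = 0.2, adjusted 0.229).

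Yme1l1, the inner membrane protease whose active site faces the intermembrane space, was at 39.1, 33.0 and 36.6 FPKM in Tyr-L and at 25.3, 25.7 and 22.4 FPKM in Tyr-H cells. It was the member that was lowest in Tyr-H relative to Tyr-L, and the groups did not overlap. The mean fell from 36.3 ± 3.06 to 24.5 ± 1.82 FPKM (SD, n = 3), a 1.48-fold lower level and a log2 fold change of -0.57 (SE 0.07, 95% interval -0.73 to -0.40) with adjusted p = 0.00013 from limma. It passed as lower under every alternative tried, between -0.66 and -0.41.

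Afg3l2, the core subunit of the inner membrane protease that faces the matrix, was at 45.5, 44.8 and 46.9 FPKM in Tyr-L and at 43.9, 45.1 and 44.0 FPKM in Tyr-H cells. The values overlapped within a narrow band. The log2 fold change was -0.05 (95% interval -0.12 to 0.03, adjusted p = 0.29, limma), and it changed sign with scaling, to 0.11 after median ratio scaling (adjusted p = 0.025) and -0.14 after each library was rescaled to the same total (0.018). Afg3l2, which like Hspa9 lies on chromosome 18, therefore has no direction here that is independent of scaling.

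Its partner subunit Spg7 (paraplegin) averaged 33.5 ± 1.70 FPKM in Tyr-L against 37.4 ± 0.761 in Tyr-H cells (SD, n = 3), a log2 fold change of 0.16 (adjusted p = 0.013, limma) that was 0.065 and did not pass after rescaling to equal totals (adjusted p = 0.31), nor with eBayes without a trend. The ratio of Spg7 to Afg3l2 was 0.706 to 0.766 in Tyr-L and 0.835 to 0.851 in Tyr-H libraries. The ratio of Afg3l2 to Yme1l1, the matrix-facing to the outward-facing protease, was 1.16, 1.36 and 1.28 in Tyr-L and 1.74, 1.75 and 1.96 in Tyr-H libraries. Both ratios were higher in each Tyr-H library than in any Tyr-L library (exact permutation p = 0.1 for each, adjusted 0.133), and neither depends on library scaling.

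Htra2, the serine protease of the intermembrane space that also binds inhibitors of apoptosis once released, was at 64.5, 64.8 and 63.7 FPKM in Tyr-L and at 72.6, 63.0 and 70.4 FPKM in Tyr-H cells. Tyr-H replicate 2 lay below the Tyr-L libraries while the other two lay above them. The log2 fold change was 0.09 (95% interval -0.02 to 0.21, adjusted p = 0.15, limma), or 0.15 without Tyr-H replicate 2 (adjusted p = 0.0093), 0.25 after median ratio scaling (0.0041), and -0.0027 after rescaling to equal totals. Loxl3 and Aup1 overlap Htra2 on the opposite strand.

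**Figure D2:**
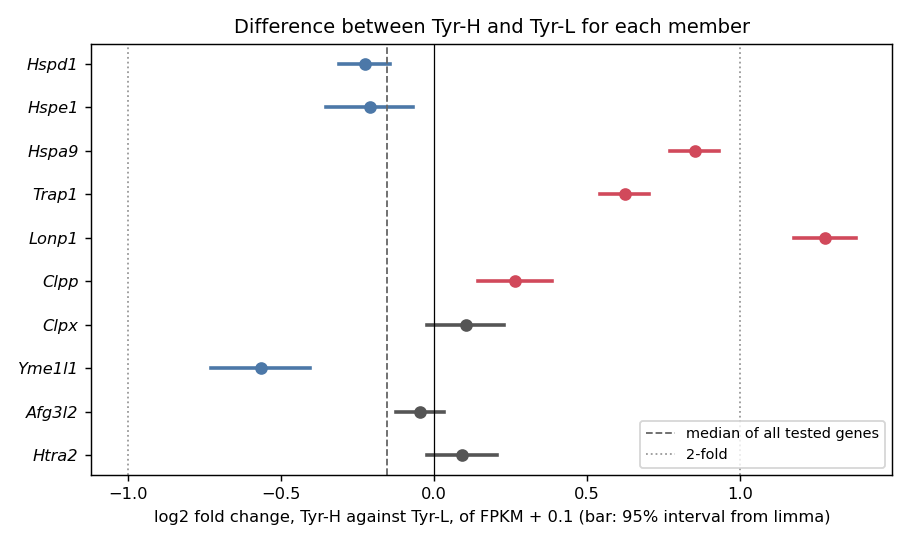
Log2 fold change of each member in Tyr-H against Tyr-L cells on log2(FPKM + 0.1), with its 95% interval from limma; red and blue mark members that passed as higher and lower, grey those that did not, and the dashed line is the median of all tested genes at -0.15. Lonp1 (1.28) alone lies past 2-fold, Afg3l2 changes sign under median ratio scaling and quantile normalization, and Htra2 under rescaling to equal totals.

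Summed over the 10 members, the level was 1580 ± 31.1 FPKM for Tyr-L against 1742 ± 32.0 for Tyr-H cells (SD, n = 3). Total FPKM over all listed genes was also higher, at 473089 to 494468 in Tyr-H against 446757 to 456749 in Tyr-L libraries. The make-up of the members' sum differed too. Hspd1 made up 45.8% ± 1.02 of it in Tyr-L and 35.5% ± 1.18 in Tyr-H cells (SD, n = 3), while Hspa9 went from 18.0% ± 0.686 to 29.4% ± 0.480 and Lonp1 from 2.52% ± 0.0703 to 5.55% ± 0.238. The 4 chaperones summed to 1356 ± 29.5 and 1464 ± 26.9 FPKM, and the 6 proteases and protease subunits to 224 ± 2.68 and 278 ± 5.54 FPKM. The median log2 fold change of the members was 0.10, against -0.15 over all tested genes. After median ratio scaling these medians were 0.25 and -0.01, with 7 members higher, 1 lower and 2 not passing, where 27.9% of all genes tested under that scaling passed as higher and 27.0% as lower, and quantile normalization gave a member median of 0.20.

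**Figure D3:**
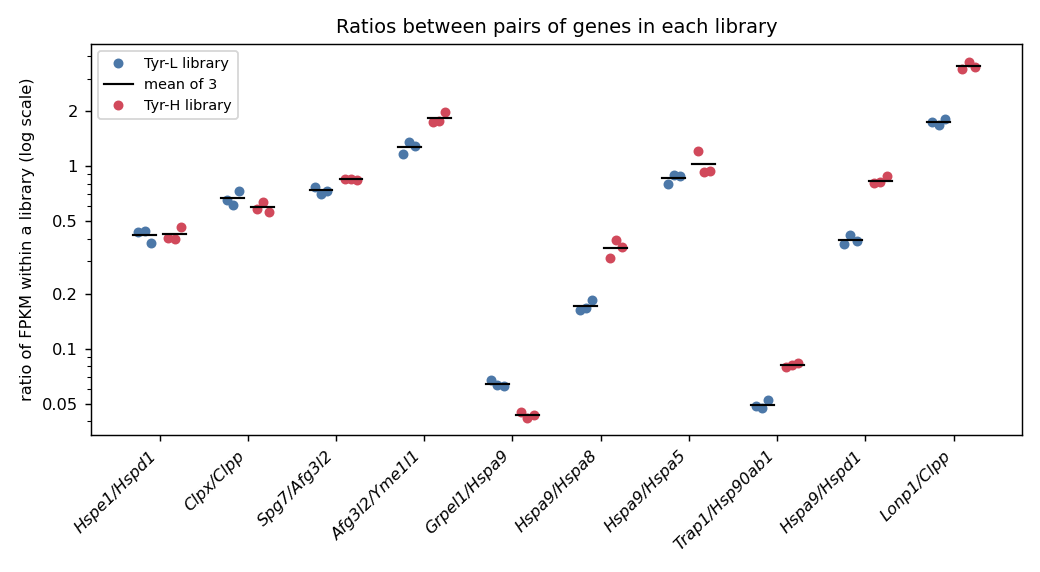
Ratio of the FPKM of 2 genes within each library (log axis), for Tyr-L (blue) and Tyr-H (red) libraries, with black bars for the group means. The Hspe1/Hspd1 and Clpx/Clpp ratios overlap between the groups, and the other 8 do not.

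The same families have members outside the mitochondrion. The ratio of Hspa9 to the cytosolic HSP70 gene Hspa8 was 0.163, 0.168 and 0.185 in Tyr-L and 0.314, 0.393 and 0.361 in Tyr-H libraries, a log2 difference of 1.05 (exact permutation p = 0.1, adjusted 0.133). Hspa8 itself averaged 1658 ± 100.3 FPKM in Tyr-L against 1451 ± 140.1 in Tyr-H (SD, n = 3), with overlapping groups (log2 -0.20, adjusted p = 0.043, limma). That call was lost in 8 of 16 alternatives, including without Tyr-L replicate 1 or 2 or Tyr-H replicate 2 or 3. Hspa5 (BiP), the HSP70 of the endoplasmic reticulum, rose from 333 ± 13.3 to 512 ± 87.4 FPKM (log2 0.61, adjusted p = 0.00094, limma), beside Hspa9. The ratio of Hspa9 to Hspa5 was 0.800, 0.890 and 0.877 in Tyr-L and 1.21, 0.923 and 0.933 in Tyr-H libraries. Its log2 difference of 0.24 was carried by Tyr-H replicate 1 and was 0.12 without it.

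Of 17 cytosolic chaperones, 2 were higher, 9 lower and 6 did not pass, with a median log2 fold change of -0.16, beside 17.9% higher, 39.9% lower and a median of -0.15 over all tested genes. The lower ones included the HSP40 gene Dnaja1 (-0.60), the inducible HSP90 gene Hsp90aa1 (-0.53) and the HSP110 gene Hsph1 (-0.43), and the higher ones were the chaperonin subunits Cct7 (0.19) and Cct4 (0.13). The stress-inducible genes Hspa1a, Hspa1b and Dnajb1, named after their values were seen, did not pass (adjusted p = 0.65, 0.44 and 0.65, limma). Hspa1a averaged 0.158 FPKM in Tyr-L and 0.128 in Tyr-H, near the pseudocount of 0.1 FPKM, and Hspa1b averaged 1.07 and 0.922. At such low levels, not passing does not show that Hspa1a and Hspa1b were unchanged. Cct4 and Cct7 lost their calls after rescaling to equal totals (adjusted p = 0.42 and 0.054, limma). After median ratio scaling 5 of the 17 passed in each direction, close to the 27.9% and 27.0% of all tested genes. Of 12 chaperones of the endoplasmic reticulum, 4 were higher, 5 lower and 3 did not pass, with a median of -0.07, and the share that was lower was close to the 39.9% of all tested genes. Dnajb9 (1.35), Hspa5 (0.61) and Sdf2l1 (0.44) rose, and the protein disulfide isomerase Pdia3 (-0.46) and the HSP90 gene Hsp90b1 (-0.44) fell. Pdia6 (-0.15, adjusted p = 0.026, limma) lost its call after median ratio scaling (log2 -0.0003) and without Tyr-L replicate 1 or 2 or Tyr-H replicate 1, and 2 of the 12 genes passed as lower under that scaling. Dnajb9 was the only one of these 29 genes that was at least 2-fold changed, where 8.75% of all tested genes were.

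Within the mitochondrion, 29 partners and further chaperones and proteases had 10 members higher, 8 lower and 11 not passing, and a median log2 fold change of 0.06, where 17.9% of all tested genes were higher and 39.9% lower. After median ratio scaling 18 were higher and 4 lower, where 27.9% and 27.0% of all tested genes were. None was at least 2-fold changed, as 8.75% of all tested genes were. Dnaja3 (TID1), the HSP40 that hands substrates to Hspa9, rose from 28.1 ± 0.338 to 40.2 ± 0.538 FPKM (SD, n = 3; log2 0.52, adjusted p = 3.2e-06, limma). Clpb, an AAA chaperone that dissolves protein aggregates, rose from 20.6 ± 0.375 to 31.1 ± 0.898 FPKM (log2 0.59), and Dnajc15, an HSP40 at the import channel, rose by 0.59. Its close relative at the same channel, Dnajc19, fell from 47.2 ± 0.617 to 32.5 ± 2.44 FPKM (log2 -0.54, adjusted p = 2.8e-05, limma).

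The largest fall on that list was that of Lactb, a filament-forming serine protease of the intermembrane space, from 29.0 ± 1.44 to 15.6 ± 0.606 FPKM (SD, n = 3; log2 -0.89, adjusted p = 1.4e-06, limma). The aminopeptidase gene Xpnpep3 fell by 0.36. Dnaja3, Dnajc19, Clpb, Spg7 and Xpnpep3 overlap other annotated genes, and Lactb and Dnajc15 do not.

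Of 24 genes for protein import, 8 were higher, 5 lower and 11 did not pass, beside 17.9% and 39.9% of all tested genes, and their median was 0.00. After median ratio scaling 15 were higher and 2, both metaxins, lower, beside 27.9% and 27.0% of all tested genes. Timm23, the channel through which matrix proteins pass to Hspa9, rose from 96.9 ± 3.28 to 122.5 ± 2.97 FPKM (SD, n = 3; log2 0.34, adjusted p = 4.6e-05, limma). Its partner Timm17b rose by 0.47, from 8.60 to 11.9 FPKM. The related Timm17a, at higher levels of 72.8 FPKM in Tyr-L and 75.2 in Tyr-H, did not pass with the deposited values (log2 0.05, adjusted p = 0.4, limma). Timm8a1, a small chaperone of the intermembrane space, rose by 0.65. Its relative Timm9 had a log2 fold change of -0.23 (adjusted p = 0.0013, limma) that did not pass after median ratio scaling (-0.076) or quantile normalization (-0.11). The outer membrane metaxins Mtx1 (-0.43) and Mtx2 (-0.34) also fell, by less after median ratio scaling (-0.28 and -0.19).

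Of 8 genes for proteins that these proteases or Htra2 are known to cut or bind, 3 were higher, 3 lower and 2 did not pass, with a median of -0.04, where 17.9% and 39.9% of all tested genes were higher and lower. Alas1, the first enzyme of heme synthesis and a Lonp1 substrate, rose by 0.44 (adjusted p = 0.00014, limma). Mrpl32, a ribosomal protein matured by Afg3l2 and Spg7, rose by 0.30, and Hax1 by 0.24. Prelid1, a lipid carrier that Yme1l1 degrades, fell by 0.24, or by 0.088 after median ratio scaling (adjusted p = 0.034, limma). Opa1, the inner membrane fusion protein that Yme1l1 cuts, and Xiap, an apoptosis inhibitor that Htra2 binds, had log2 fold changes of -0.18 and -0.27, which became -0.024 and -0.11 and no longer passed after median ratio scaling, nor after quantile normalization. These are RNA levels and say nothing of protein cleavage.

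**Figure D4:**
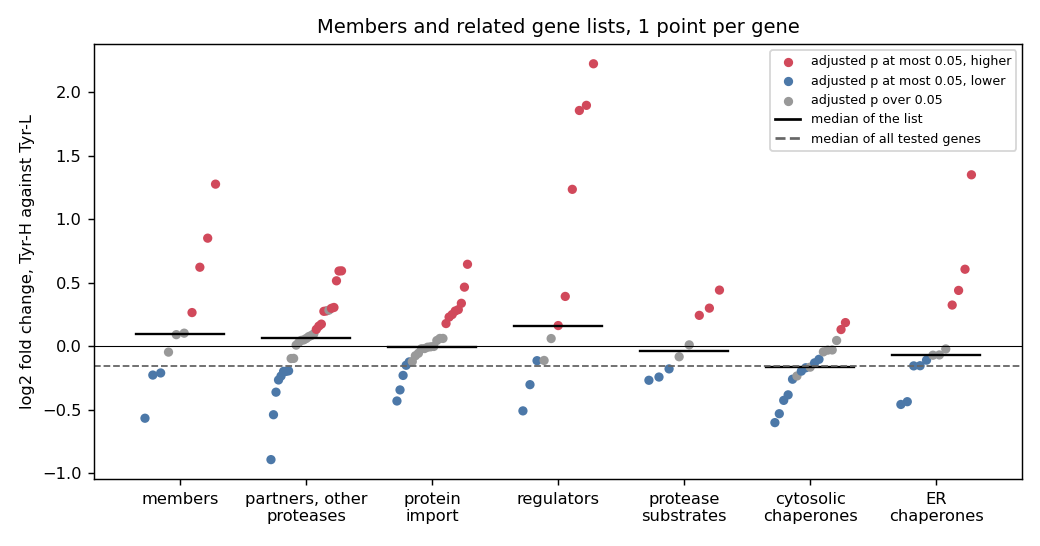
Log2 fold change (Tyr-H against Tyr-L) of each gene of the 10 members and 6 related lists, coloured by whether it passed limma at an adjusted p of at most 0.05, with black bars for list medians and a dashed line for the median of all tested genes (-0.15). The regulators reach furthest, up to 2.22 for Ddit3, and the cytosolic chaperones have their median at -0.16; 26 of the 111 genes drawn change sign under median ratio scaling, 15 under quantile normalization and 14 under rescaling to equal totals.

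Among the lists, the regulators linked to the mitochondrial unfolded protein response held the largest log2 fold changes. Of 11, 6 were higher, 3 lower and 2 did not pass, and 4 of the 6 were at least 2-fold higher, with a median of 0.16 over the list. Of all tested genes, 17.9% were higher, 39.9% lower and 2.96% at least 2-fold higher. Ddit3 (CHOP) was at 21.2, 26.0 and 21.0 FPKM in Tyr-L and at 83.1, 114.5 and 124.9 FPKM in Tyr-H cells. All Tyr-H libraries were several-fold higher, with replicate 1 below the other two. The log2 fold change was 2.22 (SE 0.14, adjusted p = 2.1e-06, limma). A second entry with the name Ddit3 overlaps it on the same strand, and Mars on the other.

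Atf5, a transcription factor named as a regulator of Hspd1 and Lonp1 in this response, was at 30.8, 36.5 and 31.8 FPKM in Tyr-L and at 114.3, 126.3 and 128.3 FPKM in Tyr-H cells. The groups were far apart, with a log2 fold change of 1.90 (SE 0.07, adjusted p = 1.5e-07, limma). Cebpb, a C/EBP factor that pairs with CHOP and ATF4, rose from 4.87 ± 0.665 to 17.9 ± 3.05 FPKM (SD, n = 3; log2 1.86, adjusted p = 3.7e-06, limma). Atf4 rose from 132 ± 10.5 to 312 ± 23.4 FPKM (log2 1.24, adjusted p = 9.6e-07, limma) and is the fourth gene past 2-fold. Atf5 overlaps Nup62 and Il4i1, and Cebpb overlaps Tmem189, all on the opposite strand. Tyr-H replicate 1 had the lowest of the 3 Tyr-H values for each of these 4 genes, and also for Lonp1, Hspa9, Hspa5 and Dnajb9. It was not the lowest for Clpp or for Trap1, where it was the highest. Some genes with lower means in Tyr-H shared the pattern. Replicate 1 was the lowest Tyr-H library for Pdia3 (194 against 219 and 218 FPKM), Hsp90b1 and Pdia6, and the highest for Canx. Its total FPKM was also the lowest of the Tyr-H libraries (473089 against 478081 and 494468). The pattern was described after the values were seen.

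Dele1, which carries a mitochondrial stress signal to the cytosol, rose from 23.7 ± 0.838 to 31.1 ± 0.159 FPKM (SD, n = 3; log2 0.39, adjusted p = 3.5e-05, limma). Of the 4 kinases that phosphorylate eIF2 and so start the integrated stress response, Eif2ak4 fell (-0.51). Eif2ak2 (-0.30, adjusted p = 0.012, limma) no longer passed after median ratio scaling (-0.15), after quantile normalization (-0.14) or without Tyr-L replicate 3. Eif2ak1 (-0.11, adjusted p = 0.046, limma) lost its call in 10 of 16 alternatives, including without any 1 library other than Tyr-H replicate 3, and had the opposite sign (0.040) after median ratio scaling. Eif2ak3 (PERK) had a log2 fold change of 0.16 (adjusted p = 0.046, limma), a call lost in 9 of 16 alternatives, among them 5 of the 6 fits without 1 library, with adjusted p from 0.055 to 0.43. Each library left out but Tyr-H replicate 3 ended that call. Hsf1, the factor that binds heat shock elements, was at 18.5 ± 0.673 and 17.1 ± 0.768 FPKM (SD, n = 3; log2 -0.11, adjusted p = 0.088, limma). Ubl5 was at 80.9 ± 7.99 and 84.7 ± 13.2 FPKM (log2 0.06, adjusted p = 0.64, limma).

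**Figure D5:**
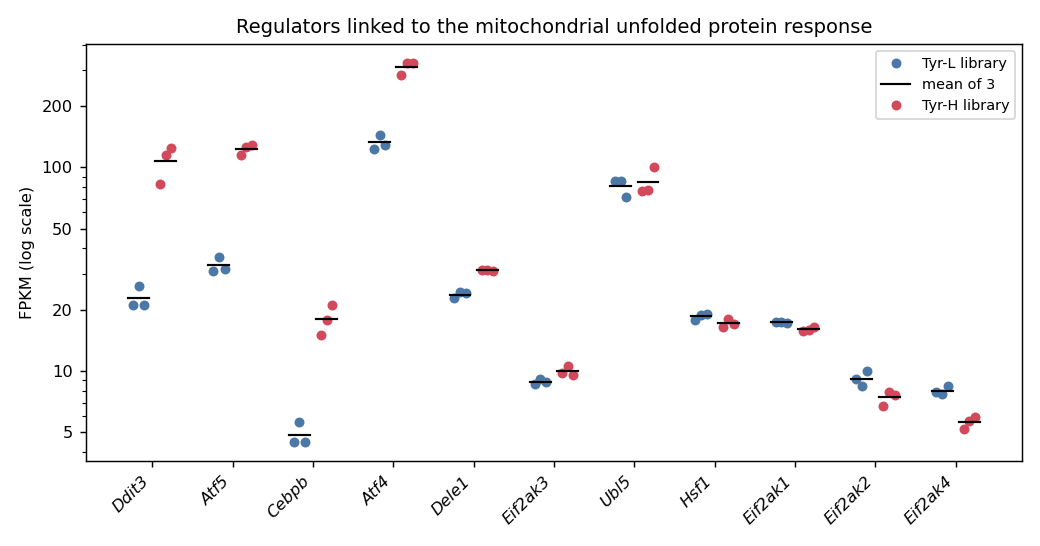
FPKM (log axis) of the 11 regulators in each Tyr-L (blue) and Tyr-H (red) library, ordered by log2 fold change, with black bars for the group means. The Tyr-H libraries of Ddit3, Atf5, Cebpb and Atf4 lie above all their Tyr-L libraries by the widest margins, Ubl5 and Hsf1 overlap, and Eif2ak1 changes sign after median ratio scaling.

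Whether these regulators act on the members was not tested.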

How the data were processed

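Total RNA of the 6 B16 subclone samples was made into libraries with a VAHTS mRNA-seq kit and sequenced as pairs on an Illumina instrument. The authors deposited 1 table of FPKM values per library. The submitters' processing notes name Trimmomatic, HISAT, HISAT2 and GRCm38.p6, and the quantifier, annotation and strand setting are not given in the sources used here. Genes not listed in a library were taken as 0. Depth is unknown: only 29.1% to 34.3% of low values came within 0.1 of a whole multiple of 1 fragment at the best depth, so no count test was run.

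Groups and replicate numbers came from the labels. Genes averaging 0.1 FPKM or more over the 6 libraries (14336) were compared on log2(FPKM + 0.1), a scale that understates the change of low genes, with limma 3.58.1 in R 4.3.3 (1 coefficient, eBayes with a variance trend, two-sided, Benjamini-Hochberg adjustment over all tested genes). Means and SD are over 3 libraries. Ratios within a library had a two-sided exact permutation test. The fit was tested on simulated data. Other steps used Python 3.11.15.

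The members and lists were chosen with earlier results of these data known. Named beside the members were, from each list, up to 3 genes per direction with the largest change among those that passed without overlap, and the genes of the 8 ratios. Atf4, Dele1, Eif2ak3, Hsf1, Ubl5, Hspa1a, Hspa1b, Dnajb1, Canx, Timm17a and the markers Mitf, Col1a1 and Col1a2 were named after their values were seen. Older symbols were matched for Maip1, Atp23 and Dele1. Locations and overlaps came from GENCODE M21 (GRCm38), and promoter letters from RefSeq. Values of genes that overlap another annotated gene are uncertain, which also holds for Grpel1, Timm17b, Timm23, Timm9, Mtx1, Mtx2, Eif2ak1, Eif2ak2, Prelid1, Alas1, Hax1, Hspa8, Dnaja1, Cct7, Hsp90b1, Pdia3, Pdia6, Dnajb9, Clpx, Dele1, Eif2ak3, Ubl5, Hspa1a, Mitf and Col1a2. Alternatives were other pseudocounts, filters, scalings and variance settings, a replicate block, and each library left out.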

Additional observations from a re-analysis of the deposited data

How the results depend on the processing

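Hspa9, Trap1, Lonp1, Clpp and Yme1l1 passed in the same direction in all 17 settings. With median ratio scaling 7 members passed as higher, 1 as lower and 2 as 2-fold higher (27.9%, 27.0% and 3.80% of all tested genes did), and the higher or lower counts were 18 and 4 for partners, 15 and 2 for import, 5 and 5 for cytosolic chaperones, with 1 lower regulator, 1 lower substrate and 2 lower chaperones of the endoplasmic reticulum. With quantile normalization the partners counted 17 higher and 4 lower, import 3 lower, regulators 1 lower, substrates 1 lower and cytosolic chaperones 1 higher. Rescaling to equal totals gave 8 lower import genes and 0 higher cytosolic chaperones, and eBayes without a trend gave 2 lower chaperones of the endoplasmic reticulum and took the call of Hspe1 (adjusted p = 0.077, limma). The member median was 0.0034, 0.25 and 0.20 under equal totals, median ratio and quantile scaling. Of the 111 genes of the lists, members included, 26, 15 and 14 turned sign under median ratio, quantile and equal-total scaling, and of the 73 that passed, 20, 11 and 8 lost their call. Among the genes named by the rule, signs turned for Afg3l2 (0.11 with median ratio, 0.049 with quantile), Htra2 (-0.0027 with equal totals), Eif2ak1 (0.040 and 0.018) and Hsp90ab1 (0.051 with median ratio). Leaving out 1 library at a time gave 5 to 8 lower partners, 1 to 3 lower regulators (1 without Tyr-L replicate 3), 3 to 5 lower chaperones of the endoplasmic reticulum, and a log2 difference of -0.053 to 0.056 for Hspe1/Hspd1. The causes were not tested.

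Over all genes, 1254 were called at 2-fold, 388 with a pseudocount of 1 FPKM and 640 with a mean of at least 1 FPKM. Of the 2-fold calls 33.9% were higher, 48.4% with median ratio scaling, 55.3% with quantile normalization and 47.7% with a pseudocount of 1. Of the genes that passed at any fold 31.0% were higher, 50.8% with median ratio scaling, 48.3% with quantile normalization and 21.5% with equal totals. The replicate numbers did not pair the libraries: same-numbered libraries had correlations of deviations of 0.0223, 0.0132 and -0.0834. With the replicate block 7807 genes passed in place of 8292, and 1258 were called at 2-fold. Among the genes named by the rule it took the calls of Eif2ak1, Hspa8 and Hsp90ab1 (adjusted p = 0.093, 0.063 and 0.11, limma), left 4 members higher and 3 lower, and left 5 regulators higher (without Eif2ak3, adjusted p = 0.058) and 2 lower. Depth in fragments is unknown, so counting error could not be separated from other spread. Groups of 3 were not tested for a library far from the others.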
